A study of Homo sapiens with 10 samples.

Results

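The pentose phosphate pathway and 2 further enzymes that make NADPH were followed in the human bladder cancer line T24 and in T24R2, its cisplatin-resistant derivative. The set holds 8 of the 61533 genes in the count tables: PGLS and PGD of the oxidative branch, RPIA, RPE, TKT and TALDO1 of the non-oxidative branch, and the cytosolic NADPH producers ME1 and IDH1. All 8 were found by symbol through their Ensembl identifiers, and all 8 passed the filter on low counts that left 16181 genes. The list was drawn up with earlier results of the T24R2 and T24 libraries in view, so the differences of its members are given as a description with no test. RNA was sequenced from 5 libraries of each line at day 3, and both lines carry the same labels for medium, serum and antibiotics. Per the study's methods, T24R2 was obtained from T24 by serial exposure to cisplatin, a platinum drug that damages DNA, and was kept in medium that contained the drug. T24R2 is a single derived line, so resistance, drug exposure and any other difference between the lines cannot be told apart. The labels do not say whether the 5 libraries of a line came from separate cultures, so the errors and p-values measure the spread between these libraries, which may be technical.

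The oxidative branch takes glucose 6-phosphate out of glycolysis and yields NADPH; in it PGLS, a lactonase, acts one step before PGD, a dehydrogenase that makes NADPH. Its product, ribulose 5-phosphate, is turned into ribose 5-phosphate by RPIA and into xylulose 5-phosphate by RPE, and the transketolase TKT and the transaldolase TALDO1 link these sugars back to glycolysis. ME1 and IDH1 make NADPH in the cytosol from malate and isocitrate. NADPH feeds glutathione and thioredoxin reduction and the synthesis of fatty acids and sterols, and several of these genes are known targets of NRF2, a transcription factor that answers oxidative stress.

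Library totals ranged from 9257843 to 10840954 counts, and mitochondrial genes took 2.35% to 2.97% of them. Levels are given in CPM, counts scaled to a common library total after a correction for library composition, and ± is the SD over the 5 libraries of a line. Of the 13 urothelial and epithelial markers, 10 were above 3 counts in some library. Their summed level was 4942 to 5675 CPM in T24 and 3013 to 3217 CPM in T24R2, mostly keratins 7, 8 and 18, while KRT20 had 0 counts in all 10 libraries and KRT5 had at most 6. GATA3 and EPCAM, at means of 22.1 and 4.45 CPM in T24, were at 0.214 and 0.130 CPM in T24R2. KRT19 went from 267.0 to 0.0887 CPM, and all 8 markers of this list that passed the filter were lower in T24R2. The 3 endothelial markers summed to 225 to 278 CPM in T24 and 1.60 to 2.50 CPM in T24R2, almost all of it CDH5 in T24. The 5 fibroblast markers stayed at or below 11.2 CPM and the 4 immune markers at or below 2.69 CPM in every library. The part of these markers in the values below was not tested.

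In T24R2 the transcripts of 6-phosphogluconate dehydrogenase, malic enzyme 1, cytosolic isocitrate dehydrogenase and transketolase were all higher than in T24. The difference was 6.85-fold for PGD, 5.49-fold for ME1, 3.12-fold for IDH1 and 1.89-fold for TKT. These libraries measured RNA only, not enzyme level or activity. TALDO1 was 1.18-fold higher with no overlap between the lines. PGLS, RPE and RPIA overlapped between the lines. A gene was called where the adjusted p of edgeR's quasi-likelihood test was under 0.05 and the log2 fold change was beyond 0.5 in either direction. By that rule 4 of the 8 genes were called, against 51.4% of all genes tested. All 4 were higher in T24R2, where 24.9% of all genes were called higher, and 0 were lower by edgeR, DESeq2 or limma-voom, where 26.5% of all genes were by edgeR. With no minimum on the fold change, 6 of the 8 were called, all of them higher. The shares of all genes given above hold only with the 0.5 minimum. With no minimum the share of all genes is no lower than that 51.4%, so this count is not read as a result about the 8. The libraries of the lines did not overlap for 5 of the 8, against 61.2% of all genes. The median log2 fold change was 0.58 for the 8 genes and 0.01 for all genes tested. These counts belong to the comparison the genes were chosen on and are printed for scale only. Without scaling of library composition, the median of all genes moved by 0.16 on the log2 scale and 60.3% of calls were higher in T24R2, against 48.5% with it. Relative to the median of all genes, PGD stood at 2.76 with each of the 4 scalings tried. A scaling moves all genes nearly alike, so this agreement was built in and is no separate check.

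**Figure D1:**
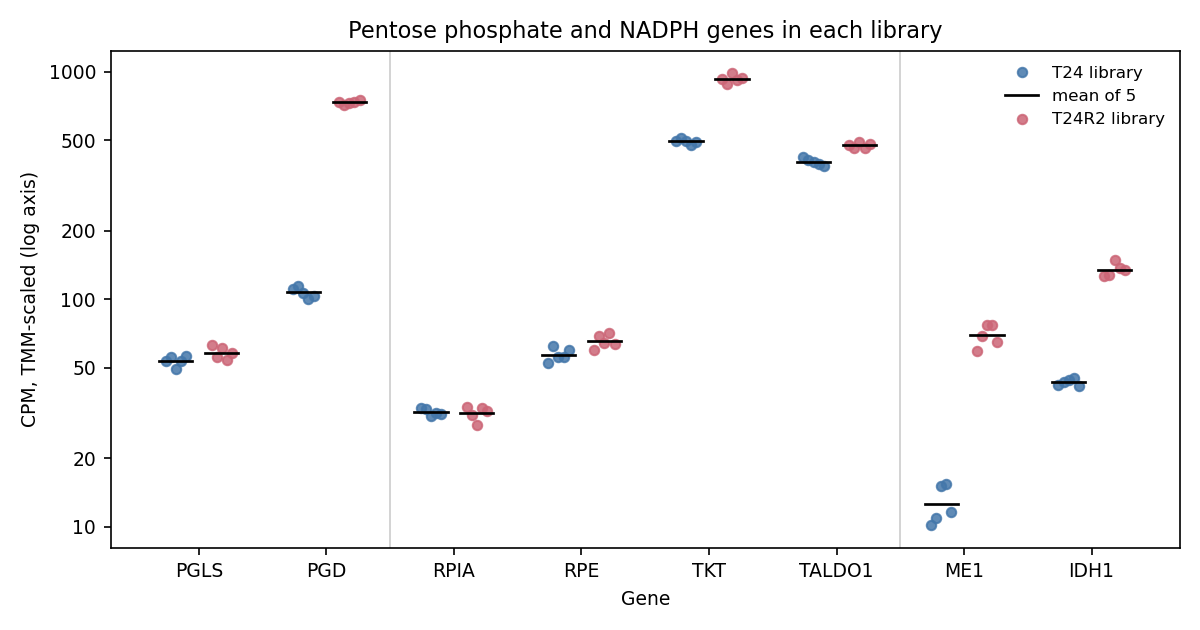
Level of each of the 8 genes in every library, in CPM on a log axis, with T24 in blue, T24R2 in red and a bar at the mean of 5 libraries; grey lines part the oxidative branch, the non-oxidative branch and the pair ME1 and IDH1. PGD, TKT, TALDO1, ME1 and IDH1 show no overlap between the lines, while PGLS, RPIA and RPE do.

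PGD, which makes ribulose 5-phosphate and NADPH from 6-phosphogluconate, lies on chromosome 1 from 10398592 to 10420511 (hg38, plus strand; ENSG00000142657.21). Its level in the 5 T24 libraries was 111.3, 114.6, 106.7, 100 and 103.6 CPM. In T24R2 it was 735.2, 717.5, 732.5, 734.4 and 751.1 CPM. The lowest T24R2 library was thus far above the highest T24 library, and the coefficient of variation was 1.62% in T24R2 and 5.43% in T24. The log2 fold change was 2.77 (SE 0.05, 95% interval 2.68 to 2.87), higher than that of 97.6% of the genes tested. No exon of another gene overlapped PGD on the opposite strand, and the PGD pseudogene PGDP1 had at most 4 counts in any library.

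PGLS, the lactonase one step before PGD, lies on chromosome 19 from 17511636 to 17521288 (plus strand; ENSG00000130313.7). T24 gave 53.66, 55.97, 49.59, 53.46 and 56.49 CPM, and T24R2 gave 62.76, 56.0, 61.04, 54.17 and 58.11 CPM. The lines overlapped, at a log2 fold change of 0.12 (SE 0.06, 95% interval -0.01 to 0.24). The gene shares 254 bases, 8.94% of its exon bases, with PGLS-DT on the opposite strand. Taking all counts of PGLS-DT off turned the log2 fold change to -0.11. This took off the whole count of that gene, not only reads in the shared bases, so it may take off too much. Per length, PGD was at 1.70 ± 0.117 times the level of PGLS in T24 and at 10.7 ± 0.633 times in T24R2 (TPM, a level per exon length scaled to the same total in every library; SD, n = 5). The 2 genes of consecutive steps therefore stood apart in T24R2 much more than in T24.

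TKT, the transketolase that moves 2-carbon units between the sugar phosphates, lies on chromosome 3 from 53224712 to 53256052 (minus strand; ENSG00000163931.17). Its T24 libraries held 496.8, 513.5, 494.3, 477.4 and 489.4 CPM, and its T24R2 libraries 934.9, 880.1, 985.2, 921.2 and 940.6 CPM. Every T24R2 library was above every T24 library, with a log2 fold change of 0.92 (SE 0.04, 95% interval 0.83 to 1.00). The transketolase-like genes TKTL1 and TKTL2 had at most 5 and 0 counts in any library.

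TALDO1, the transaldolase that works in sequence with transketolase, lies on chromosome 11 from 747415 to 765012 (plus strand; ENSG00000177156.11). T24 gave 423.4, 408.4, 402.8, 393.9 and 383.9 CPM and T24R2 gave 474.7, 462.1, 493.8, 464.2 and 481.1 CPM. The lowest T24R2 library was above the highest T24 library, yet the log2 fold change of 0.24 (SE 0.04, 95% interval 0.16 to 0.32) stayed under the 0.5 that a call asks for. In TPM, TKT was at 0.376 ± 0.0121 times TALDO1 in T24 and at 0.600 ± 0.0109 times in T24R2 (SD, n = 5).

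The isomerase RPIA, on chromosome 2 from 88691673 to 88750929 (plus strand; ENSG00000153574.9), held 33.21, 32.82, 30.74, 31.73 and 31.32 CPM in T24 and 33.49, 30.95, 27.93, 33.32 and 32.25 CPM in T24R2. Its log2 fold change was -0.02 (SE 0.08, 95% interval -0.17 to 0.14), with a sign that turned without scaling (0.15), with upper-quartile scaling (0.06), with a mean of at least 100 counts (0.01) and without T24R2 replicate 3 (0.03). Other scalings moved all genes alike, and relative to the median of all genes RPIA stayed at -0.03 with each of the 4 tried. RPIA is the lowest of the set in CPM in T24R2. The epimerase RPE, on chromosome 2 from 210002565 to 210022260 (plus strand; ENSG00000197713.15), held 52.52, 62.59, 55.65, 55.71 and 59.73 CPM in T24 and 59.82, 69.01, 64.21, 71.01 and 63.92 CPM in T24R2. The lines overlapped, with a log2 fold change of 0.20 (SE 0.06, 95% interval 0.07 to 0.32). RPE shares 23.8% of its exon bases with KANSL1L on the opposite strand, the largest such share in the set. The log2 fold change of RPE was 0.0928 with the whole count of KANSL1L taken off, which may be too much, and 0.361 without scaling. The 6 RPE pseudogenes in the tables had at most 2 counts in any library, and RPEL1 at most 3. In TPM, RPIA was at 1.09 ± 0.0865 times RPE in T24 and at 0.939 ± 0.0974 times in T24R2 (SD, n = 5), and the libraries of the lines overlapped.

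ME1, the cytosolic malic enzyme that turns malate into pyruvate with NADPH, lies on chromosome 6 from 83210402 to 83431051 (minus strand; ENSG00000065833.9). T24 held 10.17, 10.94, 15.08, 15.49 and 11.66 CPM, and T24R2 held 59.27, 69.27, 77.36, 76.8 and 64.9 CPM. ME1 was the most variable of the 8 genes within a line, with a coefficient of variation of 19.3% in T24 and 11.2% in T24R2, but the lowest T24R2 library was still well above the highest T24 library. The log2 fold change was 2.46 (SE 0.09, 95% interval 2.27 to 2.65).

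IDH1, the cytosolic and peroxisomal isocitrate dehydrogenase that uses NADP+, lies on chromosome 2 from 208236229 to 208266074 (minus strand; ENSG00000138413.14). T24 gave 42.04, 43.24, 44.11, 44.96 and 41.58 CPM, and T24R2 gave 126.3, 128.0, 148.3, 137.2 and 134.6 CPM. The lines did not overlap, and the log2 fold change was 1.64 (SE 0.06, 95% interval 1.53 to 1.76). The antisense gene IDH1-AS1 shares 94 bases, 2.0%, of the exons of IDH1 and averaged 10.6 counts a library against 931.2 for IDH1. Per length, ME1 was at 0.412 ± 0.0683 times IDH1 in T24 and at 0.725 ± 0.0540 times in T24R2 (TPM; SD, n = 5).

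By log2 fold change the order was PGD, ME1, IDH1, TKT and then the others. The intervals of PGD, ME1, IDH1 and TKT did not overlap with one another or with those of the others. Those of TALDO1, RPE and PGLS overlapped, as did those of RPE, PGLS and RPIA. The intervals cover only the spread between libraries, and the genes were chosen with these differences in view. The order is therefore a description, and differences between genes were not tested. Within the set, the 4 genes called higher were thus 1 of the 2 oxidative-branch genes, 1 of the 4 non-oxidative genes and both of the 2 other NADPH producers.

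**Figure D2:**
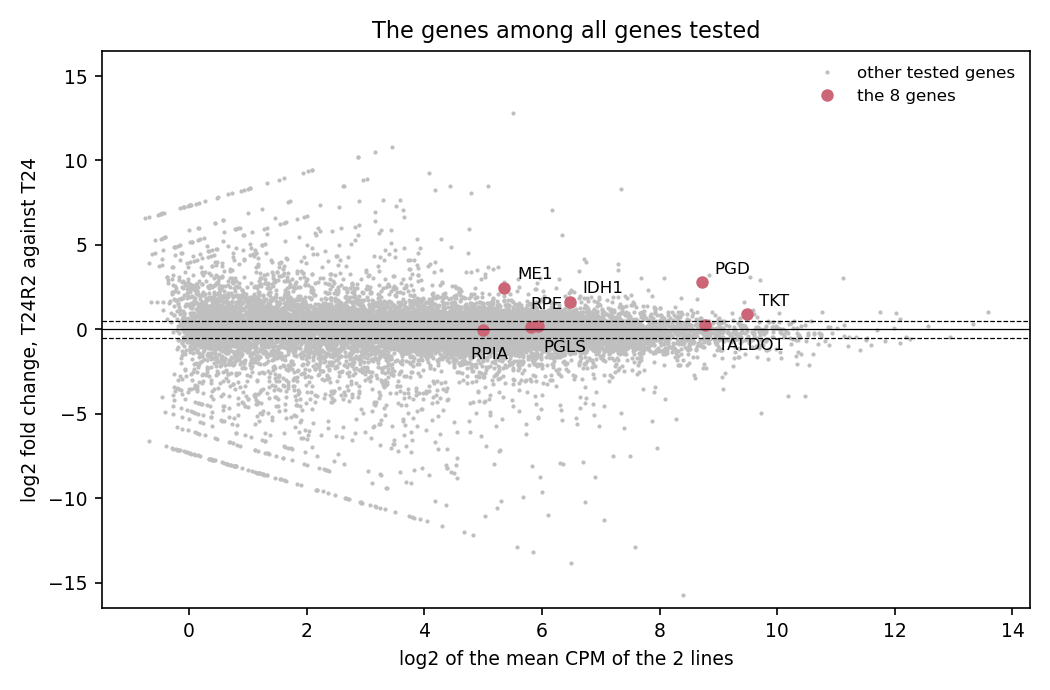
The log2 fold change (T24R2 against T24) of all 16181 genes tested against the log2 of their mean CPM over both lines; the 8 genes are red and dashed lines mark a change of 0.5. PGD (2.77), ME1 (2.46), IDH1 (1.64) and TKT (0.92) lie above the upper line, and TALDO1, RPE, PGLS and RPIA lie between the lines.

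Levels of different genes were compared per length, as TPM from the summed exon length of each gene. In T24 the order was TALDO1 (424.8 TPM), TKT (159.6), PGD (98.7), PGLS (58.2), RPIA (54.1), RPE (49.9), IDH1 (28.2) and ME1 (11.7 TPM), and the libraries of PGLS and RPIA, and of RPIA and RPE, overlapped. In T24R2 PGD came first at 789.4 ± 15.1 TPM, before TALDO1 at 585.8 ± 12.8, TKT at 351.6 ± 11.8 and IDH1 at 102.9 ± 6.35 TPM (SD, n = 5). ME1, PGLS, RPE and RPIA followed at 62.5 to 74.7 TPM, and each overlapped with the next. PGD therefore went from the place of the third most abundant of the 8 transcripts to the first, and ME1 from the last into a group with PGLS, RPE and RPIA. The summed exons of a gene include those of all its annotated transcripts, so a gene with many long exons, such as TKT with 9502 bases, reads low on this scale.

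The share that each gene took of the summed TPM of the 8 does not depend on how the libraries were scaled to one another. The share of PGLS and PGD, the 2 genes of the oxidative branch in the set, went from 17.7 ± 0.445% in T24 to 41.0 ± 0.603% in T24R2. That of the 4 non-oxidative genes went from 77.8 ± 0.306% to 50.6 ± 0.263% (SD, n = 5). PGD alone went from 11.2 ± 0.344% to 37.5 ± 0.591%, and TALDO1 from 48.0 ± 0.911% to 27.8 ± 0.353%. A lower share is not a lower level: in CPM TALDO1 was 1.18-fold higher in T24R2, and 0 of the 4 non-oxidative genes were called lower. TKT kept close to its share, at 18.04 ± 0.266% and 16.7 ± 0.363%. ME1 and IDH1 together made up 4.51 ± 0.420% and 8.42 ± 0.587%. The 8 genes together took 0.111% to 0.116% of all counts in T24 and 0.257% to 0.269% in T24R2.

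**Figure D3:**
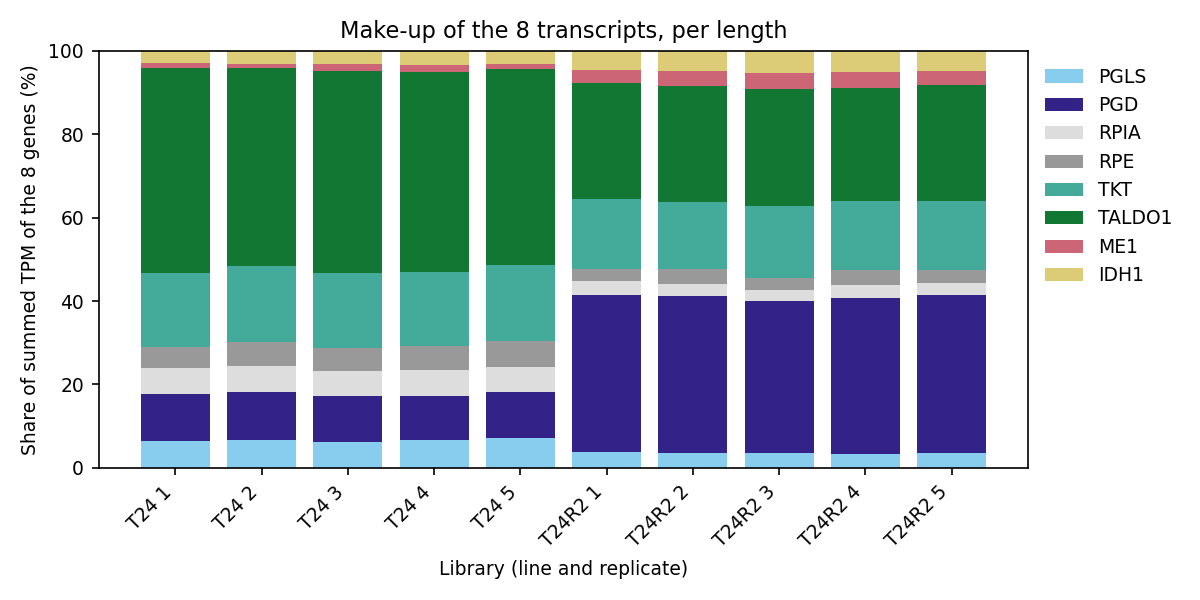
Share of each gene, in percent, of the summed TPM of the 8 genes, for every library of T24 and T24R2. The dark blue band of PGD takes 11.2% on average in T24 and 37.5% in T24R2, and the dark green band of TALDO1 goes from 48.0% to 27.8%.

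Because NRF2 binds antioxidant response elements, the promoter windows of the 8 genes were searched for the core TGACNNNGC on both strands. The windows, from RefSeq (GRCh38.p14), run from 250 bases before to 50 bases after each start site. All 8 genes had a window, and IDH1 had 2, 1 for each of 2 start sites. The core was found in the windows of PGD, RPE, ME1 and IDH1, and not in those of PGLS, RPIA, TKT and TALDO1. Over all 35116 windows in the table, 4687 (13.3%) held it. This share is per window, while IDH1 counts as a gene with the core if either of its 2 windows holds it. The 8 genes were chosen with their differences in view, so a link between a core and a call was not tested. The matches are shown as sequences only. Capitals mark the core, read on the strand of the gene, so that a match on the other strand appears as its reverse complement.
ME1, chr6:83431170-83431198, 137 bases before the start site, on the strand of the gene: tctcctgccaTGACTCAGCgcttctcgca
ME1, chr6:83431022-83431050, 11 bases after the start site, on the other strand: gctgcagtcaGCACCGTCAccccagcagc
PGD, chr1:10398853-10398881, 201 bases before the start site, on the other strand: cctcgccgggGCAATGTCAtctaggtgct
IDH1, chr2:208255196-208255224, 143 bases before the start site, on the strand of the gene: cccctctcgcTGACTCCGCccatcccacg
RPE, chr2:210002477-210002505, 151 bases before the start site, on the strand of the gene: ggcggacggcTGACAGCGCcccaccccag

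In the annotation of the deposited tables, the upstream ME1 match and the RPE match lie outside their genes, the second ME1 match overlaps an exon, and the PGD and IDH1 matches fall in introns of longer transcripts of these genes. RPE holds a core without being called, and TKT was called without one in its window. A match is a run of letters in a window and says nothing of binding in these cells.

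The genes near each member were no part of the choice of the list. The values of the members themselves were, so where a high member stands among its neighbours follows in part from that choice and is given as a description. Of the tested genes that start within 1 Mb of TALDO1, near the end of the short arm of chromosome 11, 38 of 50 were called lower in T24R2, against 26.5% of all genes, and 1 was called higher. Their median log2 fold change was -0.90, while TALDO1 stood at 0.24, above 48 of the 50. The nearest tested gene after it, GATD1, was at 191.6 ± 6.26 CPM in T24 and 98.5 ± 6.62 CPM in T24R2 (SD, n = 5; log2 fold change -0.96, SE 0.05; adjusted p = 2.3e-20, edgeR quasi-likelihood, Benjamini-Hochberg adjusted). The nearest before it, ENSG00000269915, fell from 26.5 ± 1.96 to 3.84 ± 0.889 CPM (log2 fold change -2.77, SE 0.13; adjusted p = 9.7e-22, the same test). TALDO1 was thus slightly higher in T24R2 within a stretch whose genes were mostly lower, and the median over the 924 tested genes of chromosome 11 was -0.55.

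RPE showed the opposite placement. The 5 tested genes within 1 Mb had a median log2 fold change of 0.96, 3 of them were called higher, and RPE, at 0.20, was below all 5. IDH1 lies 1.77 Mb from RPE on chromosome 2, whose 1076 tested genes had a median of 0.37. At 1.64, IDH1 was above all 9 of its neighbours, whose median was 0.20. Among these, the overlapping IDH1-AS1 was lower in T24R2, at 1.80 ± 0.512 CPM in T24 and 0.406 ± 0.185 CPM in T24R2 (log2 fold change -2.12, SE 0.38; adjusted p = 5.63e-06, edgeR quasi-likelihood, Benjamini-Hochberg adjusted). On the other side PLEKHM3 was called higher, with a log2 fold change of 0.79 (SE 0.12).

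PGD was above all 28 of its neighbours, of which 6 were called higher and 6 lower around a median of 0.25. Its nearest tested genes, KIF1B (0.40, SE 0.05) and ENSG00000271989 (0.34, SE 0.27, on the log2 scale), were not called. ME1 was above 7 of 8 neighbours with a median of 0.31, and its nearest, RWDD2A (0.28, SE 0.12) and CYB5R4 (0.30, SE 0.09), were not called. The 31 neighbours of TKT had a median of 0.43, 15 were called higher and 4 lower, and TKT was above 24 of them. PRKCD (0.34, SE 0.07) and DCP1A (0.19, SE 0.08), on either side of TKT, were not called. For PGLS the median of 56 neighbours was 0.12, the same as the value of the gene, with PGLS-DT at 0.43 (SE 0.09) and COLGALT1 at -0.47 (SE 0.05) beside it. For RPIA the median of 5 was also 0.12, with EIF2AK3-DT at -0.43 (SE 0.31) before it and ENSG00000283196, called lower at -0.63 (SE 0.12), after it.

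**Figure D4:**
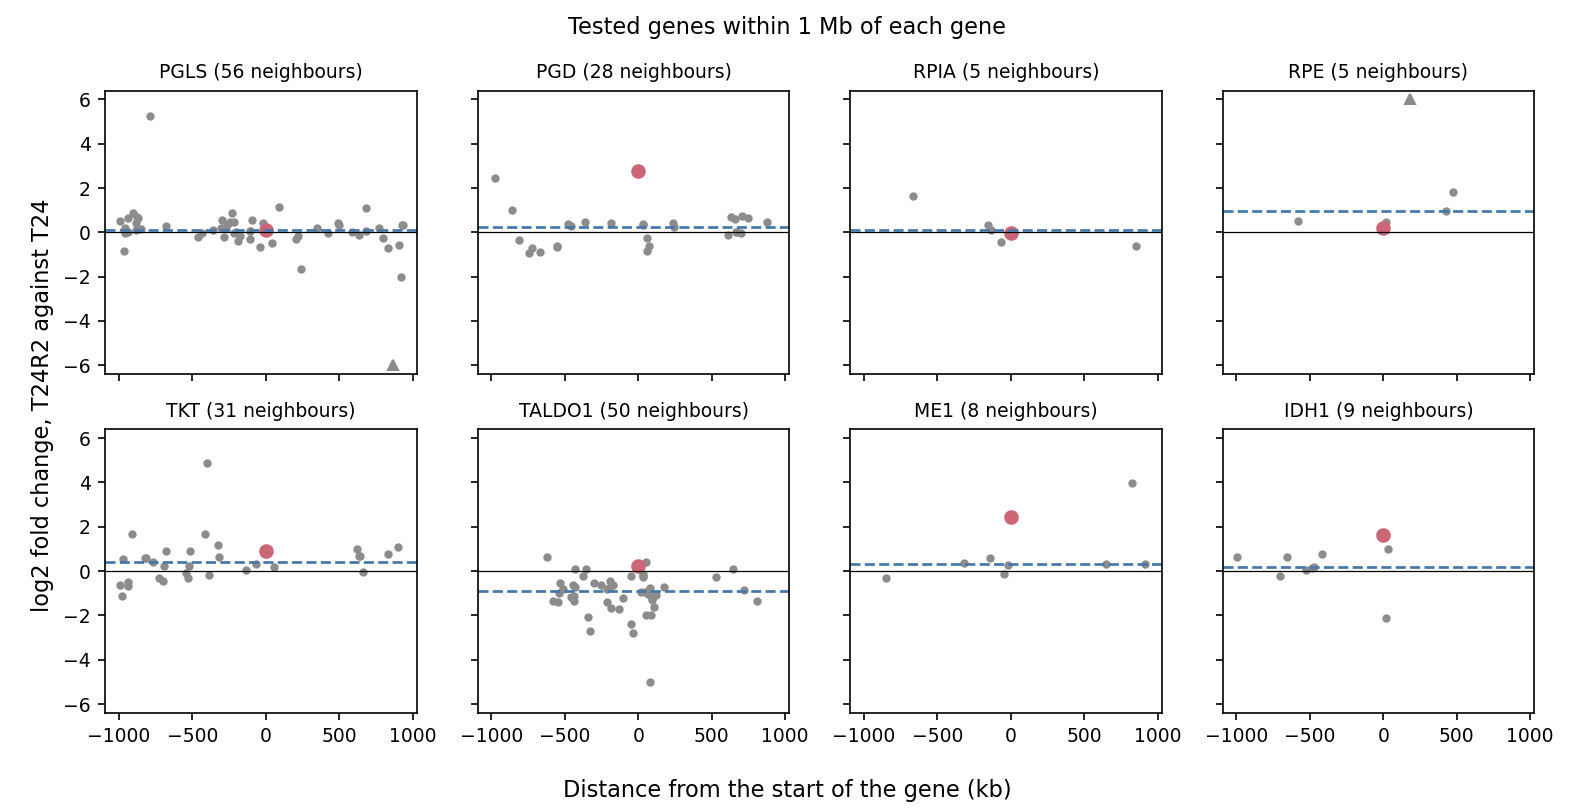
The log2 fold change (T24R2 against T24) of tested genes against the distance of their start from that of each of the 8 genes, in kb; grey points are neighbours, triangles at the edge are neighbours beyond 6, the red point is the gene itself and the dashed blue line is the median of the neighbours. TALDO1 (0.24) sits above a cloud with a median of -0.90, and RPE (0.20) below all 5 of its neighbours.

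The likeness of other genes to PGD, the member with the highest log2 fold change, was measured by the root mean square difference of log2 CPM over the 10 libraries, each gene centred on its own mean. The 3 most alike were VIM-AS1 (0.0961), CXCL12 (0.123) and FGFBP1 (0.129 on the log2 scale). VIM-AS1, from the strand opposite to the vimentin gene, went from 193.8 ± 12.2 to 1472 ± 97.3 CPM. Its reads cannot be told apart from those of vimentin where they overlap if the libraries did not keep strand. FGFBP1, which encodes a carrier of fibroblast growth factors, went from 10.2 ± 1.32 to 71.4 ± 4.23 CPM. CXCL12 had 0 counts in every T24 library and 1.16 ± 0.171 CPM in T24R2, so its place rests on the 2 counts added before the logarithm. For RPIA, the member with the lowest log2 fold change, the most alike were PSMC5 (0.0333), ATP6V1C2 (0.0385) and PSMB5 (0.0394), 2 of them proteasome subunits.

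Beyond the 8 genes, 68 genes of 8 related lists were in the tables and 62 were tested. These lists were chosen with earlier results known, so the counts and adjusted p-values of their genes below are descriptions. Of these 17 were called higher, 15 lower and 30 neither way, so 32 of 62 were called beside the 51.4% of all genes tested, and the median log2 fold change was 0.00. Among 13 other genes of the pathway and of ribose 5-phosphate use, 9 were tested, 1 was higher and 3 were lower. PRPSAP2, a partner of the enzyme that activates ribose 5-phosphate for nucleotide synthesis, rose from 19.4 ± 1.17 to 62.4 ± 5.21 CPM (log2 fold change 1.68, SE 0.08). The synthetase PRPS2 (-1.08, SE 0.07), its partner PRPSAP1 (-1.102, SE 0.07) and PGM2, a mutase for pentose phosphates (-0.85, SE 0.07), fell. The adjusted p of these 4 was at most 1.59e-14 (edgeR quasi-likelihood, Benjamini-Hochberg adjusted). In this list 2 genes had 3 counts or fewer in every library.

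The other NADPH producers and NAD kinases moved both ways: 9 of 11 were tested, 2 were higher and 3 lower. The 3 called lower encode mitochondrial enzymes. IDH2, the mitochondrial relative of IDH1, fell from 98.3 ± 2.86 to 23.3 ± 3.84 CPM (log2 fold change -2.07, SE 0.07), ME3, the mitochondrial relative of ME1, from 19.6 ± 1.79 to 0.851 ± 0.366 CPM (-4.51, SE 0.19), and GLUD1, glutamate dehydrogenase, from 267.6 ± 11.1 to 122.7 ± 3.29 CPM (-1.13, SE 0.05). ALDH1L1, a cytosolic folate dehydrogenase named after its values were seen, was too low to be tested, with 10 to 18 counts in the T24 libraries and 0 in all 5 T24R2 libraries. The transcripts of the cytosolic and the mitochondrial enzymes of both pairs, ME1 with ME3 and IDH1 with IDH2, therefore differed between the lines in opposite directions. MTHFD2L, a mitochondrial folate dehydrogenase, rose to 18.5 ± 1.55 from 9.07 ± 0.879 CPM (1.02, SE 0.11), and NADK2, the mitochondrial NAD kinase, to 41.8 ± 2.80 from 21.7 ± 0.717 CPM (0.95, SE 0.08). The adjusted p of these 5 was at most 1.36e-10 (edgeR quasi-likelihood, Benjamini-Hochberg adjusted). Of the 4 NAD-linked counterparts, IDH3A was called higher (0.94, SE 0.07), with 38.2% of its exon bases shared with ACSBG1 on the opposite strand, and 3 were not called. Of the 6 genes listed around cytosolic citrate and malate, 0 were called by edgeR, DESeq2 or limma-voom, with log2 fold changes from -0.48 to 0.33. In edgeR 1 higher and 2 lower genes had an unadjusted p under 0.05. The same 3, ACLY, SLC25A11 and ACO1, were also under 0.05 after adjustment and missed the call on the size of the change.

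Of the 11 glycolytic genes that share sugars with the pathway, 6 were called lower and 1 higher, where 26.5% of all genes were lower and 24.9% higher, with a median log2 fold change of -0.57. HK1, a hexokinase that makes glucose 6-phosphate, fell from 323.4 ± 27.3 to 132.7 ± 5.25 CPM (-1.29, SE 0.05), the phosphofructokinase PFKL from 257.3 ± 6.20 to 127.3 ± 5.31 CPM (-1.02, SE 0.04) and the aldolase ALDOC from 29.3 ± 3.57 to 2.15 ± 0.625 CPM (-3.77, SE 0.15). TIGAR, a phosphatase that lowers fructose 2,6-bisphosphate and with it glycolytic flux, rose from 2.32 ± 0.808 to 5.81 ± 0.486 CPM (1.32, SE 0.22). The adjusted p of these 4 was at most 1.01e-06 (edgeR quasi-likelihood, Benjamini-Hochberg adjusted).

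Of the 11 genes whose enzymes use NADPH, 5 were called higher and the other 6 were not called, where 24.9% of all genes were higher and 51.4% were called either way, with a median log2 fold change of 0.48. SQLE, squalene epoxidase, rose from 49.6 ± 3.13 to 106.4 ± 3.01 CPM (1.101, SE 0.06), and TXNRD2, mitochondrial thioredoxin reductase, from 25.8 ± 1.68 to 65.6 ± 4.32 CPM (1.35, SE 0.07). Their adjusted p was at most 2.77e-20 (edgeR quasi-likelihood, Benjamini-Hochberg adjusted).

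The NRF2 gene itself, NFE2L2, rose from 98.9 ± 2.33 to 280.1 ± 23.3 CPM (1.502, SE 0.05), and KEAP1, which holds NRF2 back, from 56.2 ± 3.96 to 93.2 ± 7.46 CPM (0.73, SE 0.06). BACH1, a repressor that competes at antioxidant response elements, fell from 202.3 ± 7.09 to 98.3 ± 6.06 CPM (-1.04, SE 0.05), and the small MAF partners MAFF (-0.83, SE 0.06) and MAFK (-0.59, SE 0.08) fell as well. The third small MAF gene in the list, MAFG, was not called (-0.04), which made 2 higher, 3 lower and 1 not called among 6 regulators, beside 24.9% and 26.5% of all genes. Of 6 NRF2 target genes outside the pathway, 5 were called higher and the other 1 was not called, where 24.9% of all genes were higher, with a median log2 fold change of 1.72. The gene not called, SRXN1 (0.31, SE 0.20), averaged 59.5 counts a library. It shares 90.7% of its exon bases with ENSG00000270299 on the same strand, and the part of this overlap in its count was not tested. NQO1, a quinone reductase, rose from 345.5 ± 13.7 to 1041 ± 8.09 CPM (1.59, SE 0.04), and the subunits of glutamate-cysteine ligase, GCLM and GCLC, rose by 1.96 (SE 0.06) and 1.86 (SE 0.08) on the log2 scale. The adjusted p of the 8 called genes named here was at most 5.28e-08 (edgeR quasi-likelihood, Benjamini-Hochberg adjusted). All of these lists were chosen with earlier results known. Their counts and the adjusted p-values of their genes are therefore descriptions of the lists and not independent evidence of a direction.

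**Figure D5:**
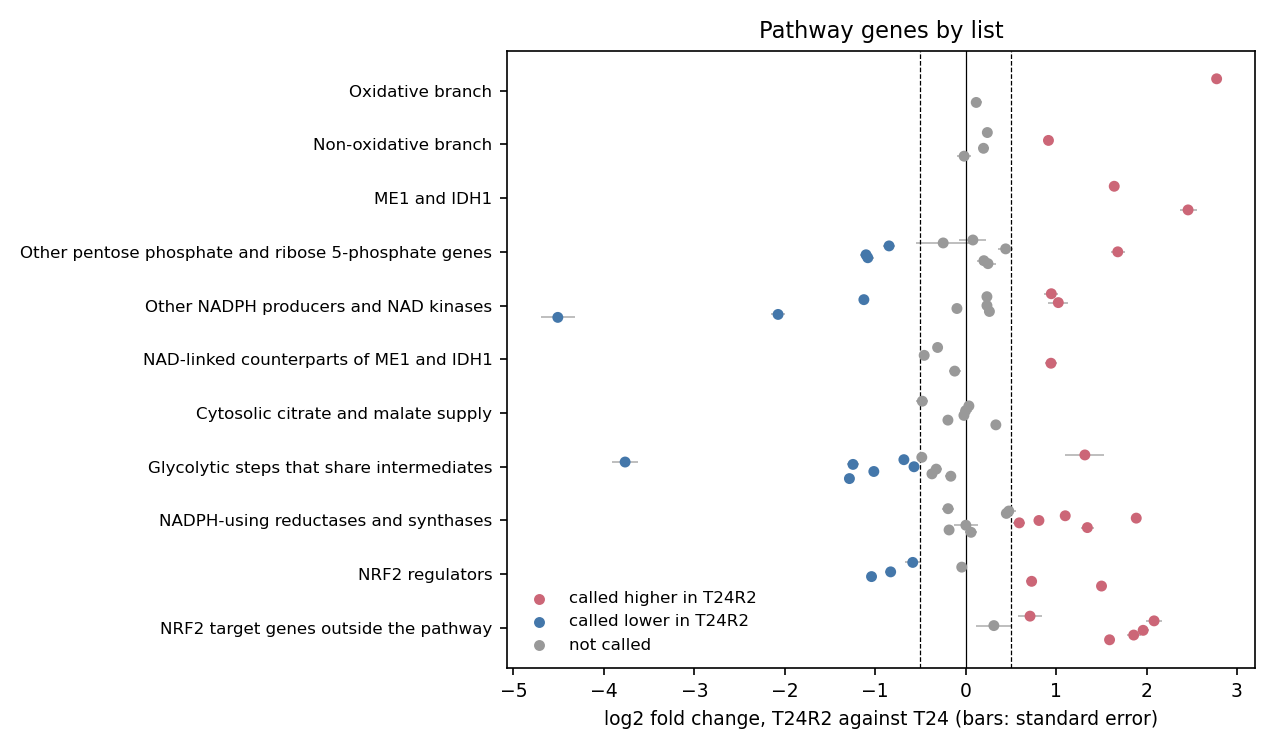
The log2 fold change (T24R2 against T24) with its standard error for the 8 genes in 3 groups and for each tested gene of the 8 related lists; red points were called higher, blue points lower and grey points neither way, and dashed lines mark 0.5 in each direction. The 3 lowest points among the other NADPH producers are ME3 (-4.51), IDH2 (-2.07) and GLUD1 (-1.13).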

How the data were processed

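RNA was extracted with a column kit and libraries were made with the NEBNext Ultra II RNA kit, per the labels. The deposited tables hold raw read counts per gene, 1 table for each of 10 libraries. Per the submitters' processing notes and the study's methods, the authors aligned reads to hg38 with STAR 2.7.0 and GENCODE release 39, kept unique, non-duplicate reads with SAMtools 1.10 and counted them with featureCounts. The headers show the strand option 1, while the kit is not described as stranded, so reads of overlapping genes on opposite strands may not be told apart.

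Counts were tested here with edgeR 4.0.16 (R 4.3.3): filterByExpr, TMM scaling, the quasi-likelihood test over all 16181 genes and Benjamini-Hochberg adjustment. CPM used TMM-scaled library sizes; TPM was computed from the summed exon lengths and is not TMM-scaled, so lines were compared in CPM. The script was tested on simulated data. Depth was 9257843 to 10840954 counts per library, and intervals cover the spread between libraries. All 20 pairs of libraries within a line differed by more than sampling noise. Symbols came from the GENCODE release 44 names, and 61369 of 61533 identifiers matched. Alternatives were other scalings, filters and thresholds, DESeq2 1.42.0, limma 3.58.1 (voom), a block on the replicate number, opposite-strand counts taken off and each library left out.

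The members and lists were chosen with earlier results of these data known. All members were named, with up to 3 called genes per list and direction by smallest adjusted p, the nearest tested gene on each side and the 3 genes most like the highest and the lowest member. Some genes that this rule would name are not reported here.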

Additional observations from a re-analysis of the deposited data

How the results depend on the processing

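PGD, ME1, IDH1 and TKT were called higher and 0 of the 8 genes lower under every scaling, filter and test run. With a minimum log2 change of 1 the count was 3, and with no minimum 6. The shares of all genes given above are for the minimum of 0.5 and cannot be set beside these counts. The share called either way is no higher than 51.4% with a minimum of 1 and no lower with none. These counts are therefore printed for scale only. Requiring a mean of 100 counts lowered the genes called from 8309 to 4991 (2350 higher, 2641 lower), with fewer genes tested. The median log2 fold change of the 8 genes, 0.58, was 0.74 without scaling and 0.65 with upper-quartile scaling. Relative to the median of all genes, PGD stayed at 2.76 and RPIA at -0.03 with all 4 scalings. This follows from scalings moving all genes nearly alike and is no separate check. Small values changed sign: PGLS was at -0.11 with the whole count of the opposite-strand gene taken off, which may take off too much. RPIA (-0.02) was at 0.147 without scaling, 0.0572 with upper-quartile scaling and 0.0135 with a mean of 100 counts. Leaving out each library in turn gave 4 genes of the 8 called each time, 8398 to 8466 genes called in all, 2.75 to 2.80 for PGD, 2.38 to 2.54 for ME1, 1.61 to 1.67 for IDH1, 0.90 to 0.94 for TKT and -0.0356 to 0.0283 for RPIA. The neighbours' medians for TALDO1 were -0.95 within 0.5 Mb and -0.84 within 2 Mb, and for RPE 1.38 and 0.98. For PGD they were 0.34 and 0.01, for TKT 0.49 and 0.51, and for IDH1 0.49 within 2 Mb. Libraries with the same replicate number deviated together with correlations of 0.002 to 0.0596 over 10686 genes, so the numbers were not taken as pairs. With the replicate block 8240 genes and 4 of the 8 were called, and no call among the 8 changed. Counting without regard to the kit's strand could not be redone from tables.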
